A study of Homo sapiens with 6 samples.

Results

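The immunoglobulin genes of cells labelled MM.1S, an established human multiple myeloma cell line, were described in 3 control libraries (si-NC) and compared with 3 PRMT1 knockdown libraries (PRMT1 KD, si-PRMT1). The siRNA was used at 100 nM for 72 h, and both groups were the same cell line with the same transfection, differing in the siRNA. The members were all rows of the deposited table whose biotype marked an immunoglobulin constant, variable, diversity or joining gene that is not a pseudogene, 213 of 58735 genes. Values are FPKM (fragment counts corrected for gene length and for library size), so levels of different genes can be compared per length. Of the 213 members, 41 had at least 1 read in any library, 24 had a mean of at least 1 FPKM over the 6 libraries, and 6 reached a mean of 100 FPKM. The changes below rest on those 24 genes, and for the other 189 no change was tested.

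An antibody is built from heavy chains and from kappa or lambda light chains, and each chain joins a variable domain to a constant domain. In a developing B cell, one variable, one joining and (in heavy chains) one diversity segment are recombined into a single exon, and class switching later brings that exon next to another heavy constant gene, removing the constant genes in between on that chromosome. A plasma cell and the myeloma clone that grows from it secrete a single antibody, and the heavy constant gene of that antibody names its class. The parent of MM.1S came from a myeloma that made IgA with lambda light chains.

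The targeted gene was measured first. PRMT1 (ENSG00000126457, chromosome 19), an arginine methyltransferase, stood at 61.7, 62.8 and 58.9 FPKM in the control libraries and at 13.3, 14.02 and 12.5 FPKM in the PRMT1 KD libraries. Its log2 fold change was -2.13 ± 0.0552 (SE, limma adjusted p = 2.77e-05), the same direction in every alternative run. The libraries held 14439217 to 16465026 reads on genes.

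The label was checked against marker genes. All 8 plasma cell markers had a mean of at least 1 FPKM, and their summed level was 858 to 874 FPKM in control and 833 to 879 FPKM in PRMT1 KD. One of them, SLAMF7, fell from 37.1 to 39.0 FPKM in control to 22.9 to 25.1 FPKM in PRMT1 KD (limma adjusted p = 0.00515). The B cell marker MS4A1 was listed at 0 in all 6 libraries. Of 6 T cell markers, 3 reached a mean of 1 FPKM, with CD4 at 36.8 to 41.6 FPKM, CD3E at 32.1 to 39.0 FPKM and CD3G at 2.73 to 3.35 FPKM, while CD8A was listed at 0 and the T cell receptor constant gene TRAC stayed at or below 0.186 FPKM. The summed level of the T cell list was 72.7 to 78.1 FPKM in control and 80.9 to 83.0 FPKM in PRMT1 KD, and its part in the results was not tested. The summed myeloid, stromal and erythroid lists did not pass 0.146 FPKM in any library. MM.1S is known for a translocation that places MAF, a transcription factor, beside the heavy chain locus, with high MAF and its targets CCR1, ITGB7 and CCND2. MAF, CCR1 and the adhesion receptor CD44 were listed at 0 in all 6 libraries, ITGB7 did not pass 0.109 FPKM, CCND2 was at 12.9 to 13.6 FPKM and the cyclin CCND1 at 98.6 to 115.8 FPKM. The values of MAF, CCR1 and ITGB7 differ from that description of MM.1S, and the cause was not tested. MAF, CCR1, CD44, ITGB7, CCND2 and CCND1 were chosen after their values were seen, and the label was kept as given.

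The heavy constant genes are close copies of one another, and so are the lambda constant genes, so the stretches that tell them apart are shown first. The sequences are GENCODE release 29 transcripts on GRCh38, written 5′ to 3′ along each gene's own strand. IGHA1 and IGHA2, which encode the IgA1 and IgA2 heavy chains, were 92.7% identical over 1112 aligned positions. Their second exon opens with the hinge, and IGHA1 carries 39 bases there that IGHA2 lacks, in capitals. IGHA1 is shown at chr14:105708055-105708144 and IGHA2 at chr14:105587824-105587874, both on the minus strand.
IGHA1: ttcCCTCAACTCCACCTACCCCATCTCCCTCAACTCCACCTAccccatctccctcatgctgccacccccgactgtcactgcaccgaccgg
IGHA2: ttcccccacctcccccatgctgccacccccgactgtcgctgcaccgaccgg

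The hinge exons of the IgG genes IGHG2 (chr14:105644068-105644103), IGHG4 (chr14:105625344-105625379) and IGHG1 (chr14:105742341-105742385), also on the minus strand, are shown because these genes were 95.1% to 95.3% identical to IGHG2 as a whole.
IGHG2: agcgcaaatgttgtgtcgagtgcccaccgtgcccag
IGHG4: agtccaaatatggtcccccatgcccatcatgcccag
IGHG1: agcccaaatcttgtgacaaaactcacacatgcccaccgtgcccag

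The first 120 bases of the lambda constant exons are shown for IGLC2 (chr22:22900976-22901095), IGLC3 (chr22:22906342-22906461) and IGLC1 (chr22:22895375-22895494), on the plus strand, with capitals at bases that differ from IGLC2. IGLC3 differed from IGLC2 at 4 of 462 positions, 1 of them in this stretch, and IGLC1 at 31 of 460.
IGLC2: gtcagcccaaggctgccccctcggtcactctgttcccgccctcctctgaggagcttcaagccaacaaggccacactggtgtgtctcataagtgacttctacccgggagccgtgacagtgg
IGLC3: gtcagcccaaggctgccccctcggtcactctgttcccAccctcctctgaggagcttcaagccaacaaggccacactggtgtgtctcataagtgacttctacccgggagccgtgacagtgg
IGLC1: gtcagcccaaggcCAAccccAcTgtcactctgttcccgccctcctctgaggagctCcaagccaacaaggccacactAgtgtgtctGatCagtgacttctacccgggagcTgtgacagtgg

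How far reads can tell these copies apart depends on their length. The sources used here give paired reads of 150 bases for the study's m6A libraries and do not state the length for these libraries. Of all 100-base windows of the IGHA2 transcript sequence, 7.67% were also present in another immunoglobulin gene, in each case IGHA1. For IGHG2 this was 20.1%, mostly shared with IGHG1, and for IGLC2 and IGLC3 30.0%, shared between them. With 50-base windows the shares were 32.3% for IGHA2, 47.0% for IGHG2, 66.1% for IGLC2 and 67.1% for IGLC3. With 150-base windows they were lower, 2.11% for IGHA2, 11.2% for IGHG2 and 7.67% for IGLC2 and IGLC3. No window of IGHD, the delta constant gene, was shared at these 3 lengths. Whether reads that map to several places were counted is not given in the sources used here, so the levels of IGHA1, IGHA2, the IGHG genes, IGLC2 and IGLC3 are uncertain by the reads they share.

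The control cells expressed lambda light chain and no detected kappa constant gene. IGLC2 (ENSG00000211677, chromosome 22), a lambda constant gene, was the highest member, at 1256, 1257 and 1228 FPKM in the control libraries. It ranked 20 among all 58735 genes by mean control FPKM. IGLC3, the next lambda constant gene along the chromosome, stood at 146, 129 and 124 FPKM, 8.63 to 9.92 times lower than IGLC2 within the same library. IGLC7 had a mean under 1 FPKM. IGLC1 was listed at 0 in all 6 libraries, and its exon lies inside the gene IGLL5, with which it shared every 50-base window.

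IGKC (ENSG00000211592, chromosome 2), the kappa constant gene, had 0 reads in all 6 libraries, which allows up to 3 reads or 0.346 to 0.398 FPKM in a library, for counting error only. IGLC2 was at least 3407-fold higher than that limit in every library. Of the 46 kappa variable genes, 1 had any read, IGKV1OR2-108, a copy elsewhere on chromosome 2, with 2 reads in PRMT1 KD replicate 1, and the 5 kappa joining genes had none.

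The control cells expressed 3 heavy constant genes, IGHG2, IGHA2 and IGHA1, at similar FPKM. These values rest on annotated lengths over all exons, 2737 bases for IGHG2, 1430 for IGHA2 and 1422 for IGHA1. By reads IGHG2 was higher, with a mean of 25795 in control against 12587 for IGHA2 and 11643 for IGHA1. Levels over a single transcript form were not compared. These RNA levels alone did not name a single class for the clone. IGHG2 (ENSG00000211893), which encodes the IgG2 heavy chain, stood at 592, 599 and 533 FPKM. IGHA2 (ENSG00000211890) stood at 544, 565 and 502 FPKM. IGHA1 (ENSG00000211895) stood at 514, 531 and 453 FPKM. The ranges of IGHG2 and IGHA2 overlapped, as did those of IGHA2 and IGHA1, while every IGHG2 library was above every IGHA1 library. Within each control library the order was IGHG2, IGHA2 and IGHA1. IGHD (ENSG00000211898) followed at 117, 118 and 107 FPKM, below every library of IGLC3. Of the summed heavy constant FPKM in control, IGHG2 made up 32.9% ± 0.229, IGHA2 30.8% ± 0.350, IGHA1 28.6% ± 0.453 and IGHD 6.54% ± 0.103 (SD, n = 3 each).

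The remaining heavy constant genes were far lower. IGHG1 was at 9.47, 10.2 and 8.54 FPKM, IGHG4 at 6.96, 6.27 and 6.76 FPKM, IGHE (the epsilon constant gene) at 5.08, 3.53 and 3.25 FPKM, and IGHG3 at 1.42, 0.879 and 0.878 FPKM. IGHM (ENSG00000211899), the mu constant gene that a naive B cell uses first, had 0 reads in all 6 libraries, which allows up to 0.0968 to 0.111 FPKM. IGHM overlaps no other gene in the annotation.

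Along chromosome 14, from the joining genes outward, the constant genes lie in the order IGHM, IGHD, IGHG3, IGHG1, IGHA1, IGHG2, IGHG4, IGHE and IGHA2. The levels did not follow this order. IGHM was at 0 and its neighbour IGHD above 100 FPKM, IGHG3 and IGHG1 were low, and the high genes IGHA1, IGHG2 and IGHA2 were separated by the low genes IGHG4 and IGHE.

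**Figure D1:**
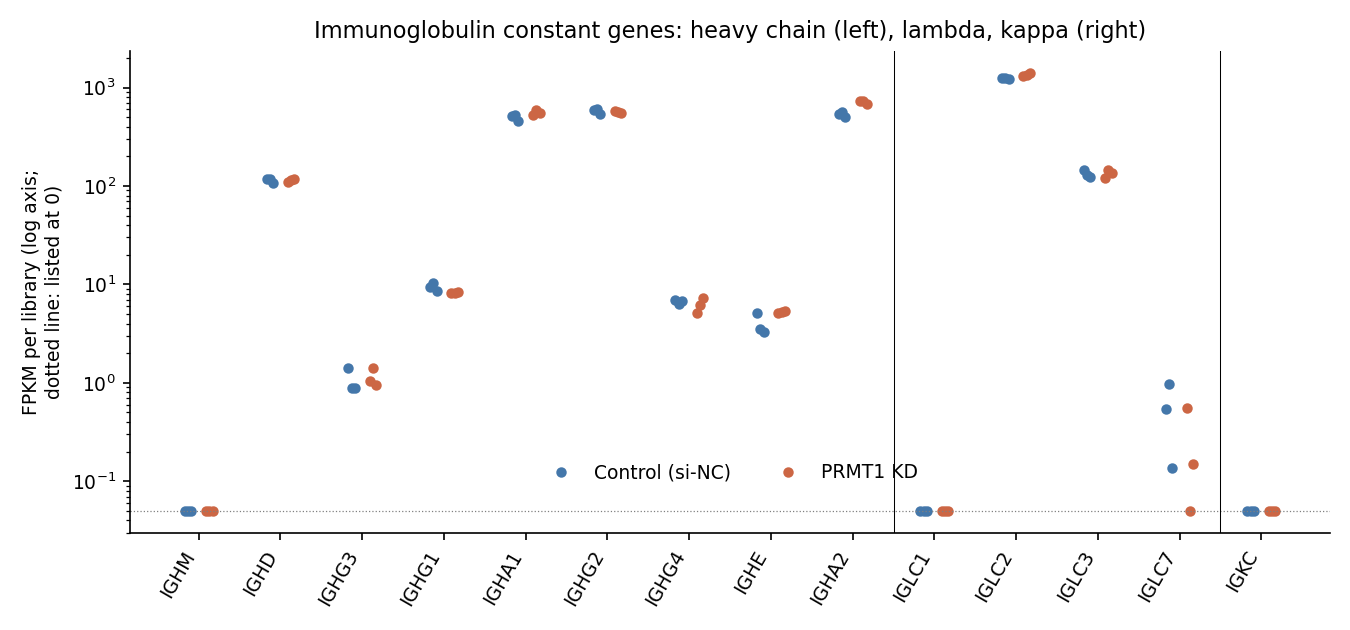
FPKM of each immunoglobulin constant gene (log axis) in the 3 control (blue) and 3 PRMT1 KD (orange) libraries, in chromosomal order within the heavy and lambda loci. IGHA1, IGHG2, IGHA2 and IGLC2 lie above every library of the other constant genes, and IGHM, IGLC1 and IGKC are listed at 0.

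The variable genes were measured at a small fraction of the constant genes. In control, the 48 heavy variable genes summed to 27.9 ± 3.40 FPKM, 1.61% ± 0.231 of the summed heavy constant FPKM, and the 37 lambda variable genes to 14.5 ± 3.09 FPKM, 1.05% ± 0.209 of the lambda constant sum (SD, n = 3). Constant genes held 99.5% of all reads on members in control. The annotated heavy diversity genes (27) and heavy joining genes (6) had no read in any library. No variable gene reached the level of the 6 members with a mean of 100 FPKM, though IGLV5-52 was above IGHG1 and the lower constant genes by mean control FPKM. The cause of the low variable gene counts was not tested.

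IGLV5-52 (ENSG00000211643, chr22:22318727-22319226) was the highest variable gene, at 12.3, 12.4 and 6.55 FPKM in control, or 77, 76 and 41 reads. It was the only lambda variable gene over 3 FPKM in these libraries. Its neighbour IGLV1-51 was at 0.931 to 1.87 FPKM and IGLV3-1, which lies nearest to the lambda joining genes, at 1.97 to 2.65 FPKM. Among the lambda joining genes, IGLJ1 was at 1.43, 3.42 and 1.43 FPKM and IGLJ2 at 1.38, 0.354 and 0.692 FPKM, on 1 to 7 reads a library. IGLJ1 lies inside IGLL5.

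Most heavy variable genes that were read lay side by side. All 9 with a mean of at least 1 FPKM fell in 1 stretch of chromosome 14 from IGHV1-24 to IGHV1-46, among them IGHV4-39 at 7.39, 7.30 and 5.70 FPKM, IGHV4-34 at 6.64, 2.64 and 8.32 FPKM and IGHV1-24 at 5.58, 4.98 and 6.04 FPKM in control. Pseudogenes in the same stretch were read as well. Of 28 V pseudogenes between IGHV1-24 and IGHV3-47, 8 had a mean of at least 1 FPKM and 21 had a read. Together the 41 genes and pseudogenes of this stretch (chr14:106276548-106519027) held 96.7% of the 1883 reads on the 127 heavy V genes and pseudogenes of chromosome 14. The 33 nearer to the joining genes held 2.18% and the 53 beyond it 1.12%. The ends of the stretch were set from these values, so this is a description with no test. The reads of the stretch came to 277 to 334 in a control library and 269 to 335 in a PRMT1 KD library, so the groups overlapped.

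**Figure D2:**
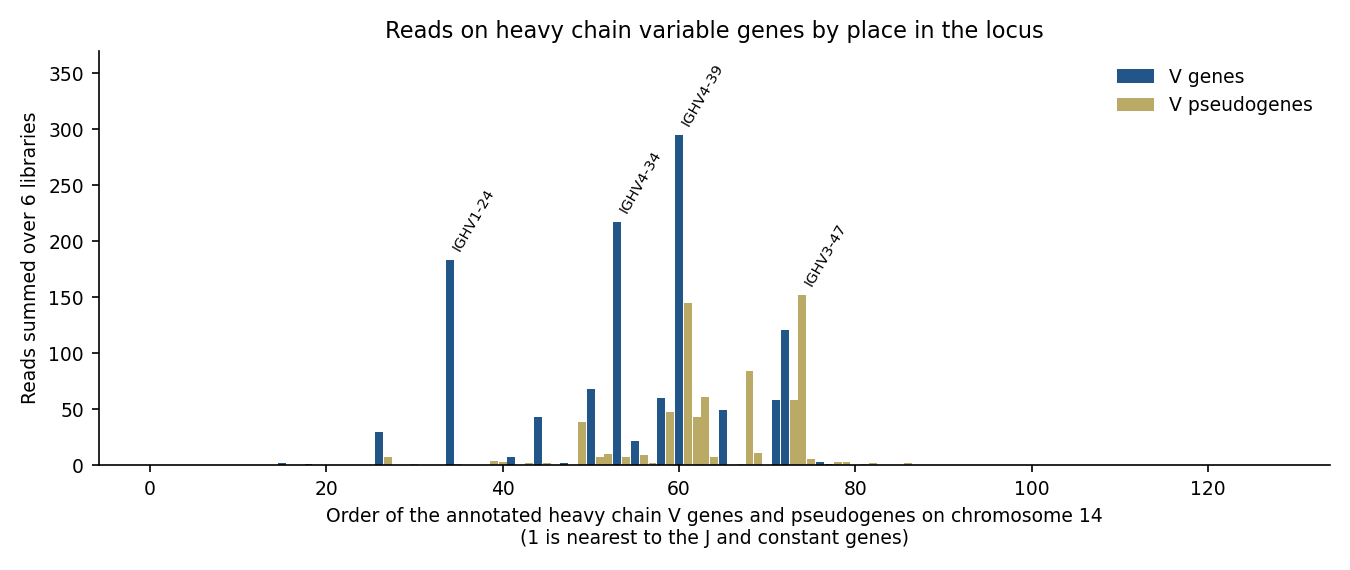
Reads summed over the 6 libraries (linear axis) for each heavy chain V gene (blue) and V pseudogene (tan) in its order along chromosome 14, with 1 nearest to the joining genes. Reads fall between order 34 (IGHV1-24) and order 74 (IGHV3-47), with few on either side.

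The other heavy variable genes of the stretch were at lower levels. IGHV3-33, IGHV3-38, IGHV3-43, IGHV3-30, IGHV1-45 and IGHV1-46 were between 0.562 and 2.10 FPKM in the control libraries. IGHV3-33 and IGHV3-30 shared 65.4% of their 50-base windows with each other, so their values are uncertain. IGHV3-35, also in the stretch, had a mean of 0.635 FPKM. IGHV1-18, which lies outside it and nearer to the joining genes, had a mean of 0.760 FPKM and was read in all 6 libraries. Neither was tested. Of the 13 variable genes on chromosomes 15, 16 and 21, copies outside the immunoglobulin loci, 1 had any read, IGHV2OR16-5, with a mean of 0.170 FPKM. For comparison, the members together summed to 3009 to 3578 FPKM in a library and the 195 T cell receptor genes to 7.13 to 12.4 FPKM.

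The comparison of PRMT1 KD with control asked whether the same constant and variable genes were used at the same level after PRMT1 was lowered. Of the 24 members tested, 2 were higher (IGHA2 and IGHV1-46) and 0 lower at an adjusted p under 0.05 (limma). That is 8.33% of the members, where 279 of all 13585 genes tested, or 2.05%, were called, 1.07% higher and 0.986% lower. At an unadjusted p under 0.05, 4 were higher and 2 lower, 25% of the members against 19.5% of all genes. The libraries of the groups did not overlap in 6 of the 24, again 25%, against 25.9% of all genes. The median log2 fold change of the members was 0.06, against 0.01 for all genes tested. By voom, which models the reads worked back from FPKM, 1 member was called, IGHA2, where 6.82% of all genes were. In bulk RNA, fewer cells of a type and less RNA per cell cannot be told apart.

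IGHA2 rose. It stood at 544, 565 and 502 FPKM in the control libraries and at 734, 736 and 686 FPKM in the PRMT1 KD libraries, or 12872, 13032 and 11856 reads against 17335, 15144 and 14943. Every PRMT1 KD library was above every control library. The mean was 1.34 times higher, with a log2 fold change of 0.42 ± 0.0581 (SE, 95% confidence interval 0.28 to 0.56, limma adjusted p = 0.0291), and voom gave an adjusted p of 0.000208. The call was kept in 9 of 16 alternatives and lost without a filter on low genes (adjusted p = 0.130), without the variance trend (adjusted p = 0.0687) and without any single library except control replicate 3 (adjusted p of 0.0633 to 0.135). The log2 fold change was 0.37 to 0.46 in all of them.

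IGHA1, the closest copy of IGHA2, stood at 514, 531 and 453 FPKM in control and at 527, 587 and 545 FPKM in PRMT1 KD. The groups overlapped, and its log2 fold change was 0.15 ± 0.0721 (95% confidence interval -0.02 to 0.32, adjusted p = 0.312). The difference between the genes was also measured within each library. The log2 ratio of IGHA2 to IGHA1 was 0.08, 0.09 and 0.15 in control and 0.48, 0.33 and 0.33 in PRMT1 KD. Each PRMT1 KD library was above each control library, a difference of 0.27 with an exact two-sided permutation p of 0.1, the smallest that 3 libraries against 3 allow. This ratio was chosen after IGHA2 was seen to change.

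IGHG2 was not called. It stood at 592, 599 and 533 FPKM in control and at 577, 568 and 555 FPKM in PRMT1 KD, with a log2 fold change of -0.02 ± 0.0554 (95% confidence interval -0.15 to 0.11, adjusted p = 0.893). The log2 ratio of IGHA2 to IGHG2 was -0.12, -0.08 and -0.09 in control and 0.35, 0.37 and 0.30 in PRMT1 KD (exact two-sided permutation p = 0.1, the smallest possible). This ratio, too, was chosen after IGHA2 was seen to change. IGHA2 made up 36.4% ± 0.858 of the summed heavy constant FPKM in PRMT1 KD and IGHG2 28.7% ± 0.647 (SD, n = 3). By FPKM, IGHA2 lay below IGHG2 in every control library and above it in every PRMT1 KD library. By reads, IGHA2 lay below IGHG2 in every library of both groups. IGHD stood at 111, 115 and 119 FPKM in PRMT1 KD, within 0.01 of its control level on the log2 scale (95% confidence interval -0.11 to 0.14).

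The lambda constant genes did not pass the threshold. IGLC2 stood at 1256, 1257 and 1228 FPKM in control and at 1320, 1357 and 1417 FPKM in PRMT1 KD. The groups did not overlap, but the log2 fold change of 0.13 ± 0.0450 (95% confidence interval 0.02 to 0.24) missed the threshold (adjusted p = 0.178). IGLC3 stood at 120, 144 and 137 FPKM in PRMT1 KD and overlapped with its control libraries. Its log2 fold change was 0.01, with a 95% confidence interval of -0.20 to 0.21. IGKC and IGHM were at 0 in both groups, as in control.

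Of the low heavy constant genes, none passed the threshold. IGHG1 was at 8.11, 8.17 and 8.30 FPKM in PRMT1 KD, below its 3 control libraries, with a log2 fold change of -0.18 ± 0.0694 (adjusted p = 0.224). IGHE was at 5.09, 5.24 and 5.40 FPKM, above its 3 control libraries, with a log2 fold change of 0.35 ± 0.133 (adjusted p = 0.210). The highest IGHE control library, at 5.08 FPKM, lay just under the lowest PRMT1 KD library. IGHG4 was at 5.08, 6.19 and 7.33 FPKM and IGHG3 at 1.05, 1.42 and 0.953 FPKM, and both overlapped with control.

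IGHV1-46 was the second gene called and rested on few reads. It stood at 1.66, 1.23 and 1.11 FPKM in control and at 2.50, 2.76 and 2.51 FPKM in PRMT1 KD, or 18, 13 and 12 reads against 27, 26 and 25. The groups did not overlap, and the log2 fold change on the FPKM + 1 scale was 0.63 ± 0.115 (95% confidence interval 0.35 to 0.90, adjusted p = 0.0487). The call was kept in 2 of 15 alternatives, both rescalings to TPM, and the adjusted p ranged from 0.0451 to 0.163 over all of them. Voom gave an adjusted p of 0.0981.

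IGHV1-24, at the other end of the read stretch, had the opposite sign. It stood at 5.58, 4.98 and 6.04 FPKM in control and at 4.27, 3.89 and 3.03 FPKM in PRMT1 KD, with a log2 fold change of -0.47 ± 0.115 that missed the threshold (adjusted p = 0.0919). The PRMT1 KD libraries were all below the control libraries, on 19 to 41 reads. IGLV5-52 stood at 10.4, 10.8 and 10.9 FPKM in PRMT1 KD, between its own control values of 6.55 and 12.4 FPKM. The groups of the other variable and joining genes overlapped, with log2 fold changes from -0.38 for IGLV3-1 to 0.48 for IGLJ1, and 6 of the 24 members had a mean under 10 reads.

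**Figure D3:**
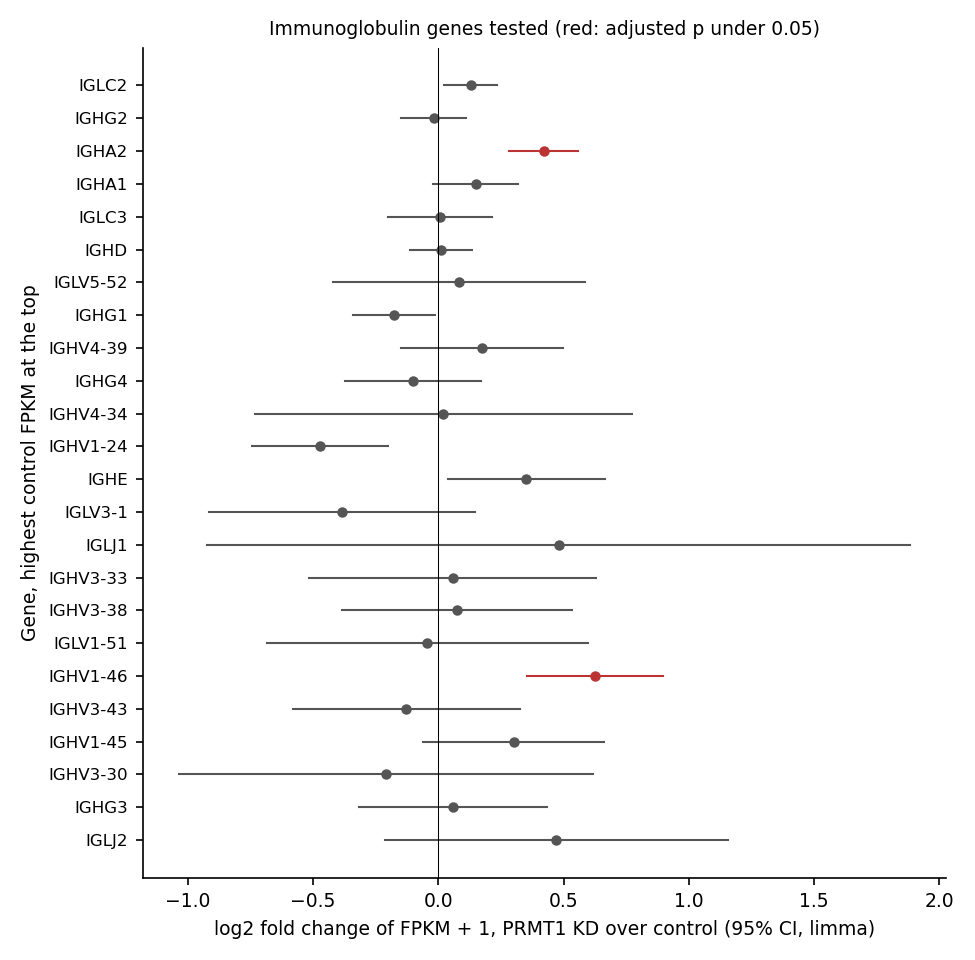
Log2 fold change (PRMT1 KD over control, on log2(FPKM + 1)) with its 95% confidence interval for the 24 members tested, ordered by control level. IGHA2 (0.42) and IGHV1-46 (0.63), in red, had an adjusted p under 0.05, and the intervals of IGHG2, IGHD and IGLC3 span 0.

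The summed share of reads on all members was higher in each PRMT1 KD library than in each control library. They held 0.408%, 0.413% and 0.379% of the reads on genes in control and 0.435%, 0.439% and 0.422% in PRMT1 KD. The groups did not overlap, at 0.400% ± 0.0183 against 0.432% ± 0.00903 (SD, n = 3, exact two-sided permutation p = 0.1, the smallest possible). Without IGHA2 the shares were 0.322% ± 0.0147 and 0.329% ± 0.00461, and the groups overlapped (exact permutation p = 0.7). This holds for reads, which weight long genes more, and the share of summed FPKM without IGHA2 was not compared. Summed lambda constant FPKM, which holds no IGHA2, was 1352 to 1402 in control and 1440 to 1554 in PRMT1 KD (exact permutation p = 0.1). IGHA1, IGHG2 and IGHD overlapped between the groups.

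The balance of light to heavy chain overlapped between the groups. The log2 ratio of summed lambda to summed heavy constant FPKM was -0.35, -0.40 and -0.26 in control and -0.45, -0.43 and -0.31 in PRMT1 KD. The libraries overlapped, with a difference of -0.06 (exact two-sided permutation p = 0.4).

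**Figure D4:**
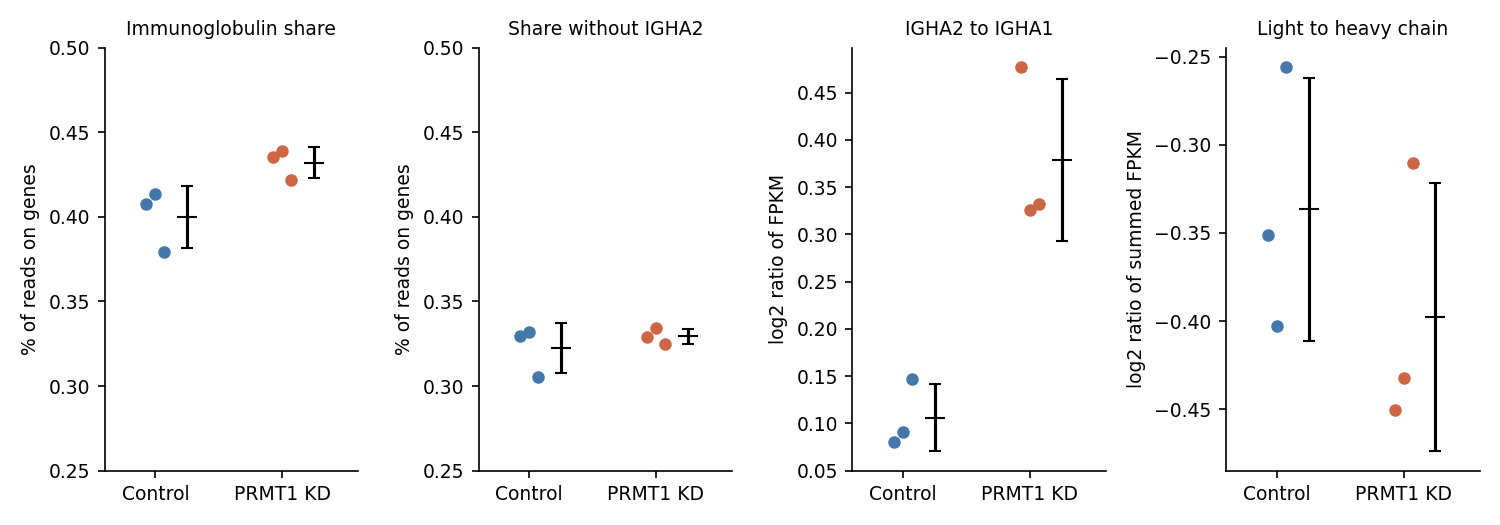
Per-library values (points) with mean ± SD (black) of the immunoglobulin share of reads, that share without IGHA2, the log2 ratio of IGHA2 to IGHA1 and the log2 ratio of light to heavy chain. The groups do not overlap in the share and in the IGHA2 to IGHA1 ratio, and overlap in the share without IGHA2 and in the light to heavy ratio.

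Pseudogenes of these families were compared as well. Of 201 immunoglobulin pseudogenes, 11 had a mean of at least 1 FPKM and 0 were called (limma), and the groups overlapped in each. Among all genes tested, 2.05% were called and the groups did not overlap in 25.9%, so counts over 11 genes say little. In the heavy V stretch these were IGHVII-46-1 (mean control level 13.2 FPKM), IGHVII-40-1 (7.72 FPKM), IGHV7-40 (4.73 FPKM), IGHV3-47 (4.18 FPKM), AC244452.3 (4.03 FPKM), IGHVIII-38-1 (2.16 FPKM), IGHV3-41 (1.63 FPKM) and IGHV3-29 (1.30 FPKM). Elsewhere they were IGHEP2 (1.66 FPKM), IGLVIVOR22-1 (1.64 FPKM) and IGHGP (1.21 FPKM). At an unadjusted p under 0.05 there was 1, AC244452.3, a V pseudogene in the same stretch, at 4.27, 5.04 and 2.78 FPKM in control and 2.14, 1.23 and 3.02 FPKM in PRMT1 KD (adjusted p = 0.187). Of all genes tested, 19.5% had an unadjusted p under 0.05. Voom called 0 of the 11 pseudogenes, against 6.82% of all genes.

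The genes that transcribe, process, assemble and secrete immunoglobulin were read from 5 lists of 135 genes, of which 110 were tested and 3 were called, 1 higher and 2 lower. That is 2.73%, beside 2.05% of all genes.

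Factors that switch on immunoglobulin genes were read first. Of 25 transcription genes listed, 18 passed the filter. Limma called 0 of them, 6 had an unadjusted p under 0.05 (33.3%, against 19.5% of all genes) and voom called 3 (16.7%, against 6.82% of all genes). IRF4, a plasma cell transcription factor, stood at 117, 115 and 115 FPKM in control and 115, 118 and 116 FPKM in PRMT1 KD. POU2AF1, the co-activator of octamer factors at immunoglobulin promoters, stood at 78.2, 84.9 and 77.9 FPKM in control and 79.3, 76.8 and 71.9 FPKM in PRMT1 KD. Both overlapped between the groups. XBP1, the secretory factor of plasma cells, was at 284, 292 and 284 FPKM in control and 258, 268 and 260 FPKM in PRMT1 KD, and PRDM1, the repressor that fixes plasma cell fate, at 17.8, 18.7 and 17.8 FPKM against 16.9, 15.4 and 15.3 FPKM. For each of these the PRMT1 KD libraries lay below the control libraries, with log2 fold changes of -0.13 and -0.18 that missed the threshold (adjusted p = 0.133 and 0.136).

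Of 20 genes of RNA ends and splicing, 0 were called by limma, 5 had an unadjusted p under 0.05 (25%, against 19.5% of all genes) and 1 was called by voom (5%, against 6.82%). ELL2, the elongation factor that favours the secreted form of heavy chain mRNA, stood at 132, 136 and 149 FPKM in control and 147, 154 and 168 FPKM in PRMT1 KD, overlapping (log2 fold change 0.17, adjusted p = 0.235).

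Among 55 assembly and secretion genes tested, 3 were called (5.45%, against 2.05% of all genes). An unadjusted p under 0.05 was found for 18, 6 higher and 12 lower (32.7%, against 19.5%), and voom called 7 (12.7%, against 6.82%). The median log2 fold change of the list was -0.06. PRDX4, a peroxiredoxin of the endoplasmic reticulum, rose from 59.8, 61.8 and 57.3 FPKM to 81.5, 86.2 and 85.8 FPKM, with a log2 fold change of 0.50 ± 0.0467 (adjusted p = 0.0121). HERPUD1, a membrane protein of the pathway that removes misfolded proteins from the endoplasmic reticulum, fell from 120, 119 and 117 FPKM to 96.1, 97.2 and 93.0 FPKM, with a log2 fold change of -0.31 ± 0.0385 (adjusted p = 0.0240). SELENOS, a selenoprotein of the same pathway, fell from 15.2, 16.1 and 15.3 FPKM to 12.0, 10.8 and 11.8 FPKM, with a log2 fold change of -0.39 ± 0.0575 (adjusted p = 0.0322). PRDX4 lost its call without control replicate 1 or PRMT1 KD replicate 2, HERPUD1 without any single library except control replicate 3, and SELENOS without any single library (adjusted p of up to 0.141). HERPUD1 and SELENOS also lost their calls without a filter on low genes and without the variance trend. In all, HERPUD1 lost its call in 7 alternatives and SELENOS in 9.

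The partners that IgA and the plasma cell use most directly did not pass the threshold. JCHAIN, the chain that links IgA into dimers, stood at 471, 475 and 541 FPKM in control and 482, 541 and 608 FPKM in PRMT1 KD, and the groups overlapped (log2 fold change 0.13, 95% confidence interval -0.10 to 0.35, adjusted p = 0.500). MZB1, a chaperone of immunoglobulin in the endoplasmic reticulum, was at 91.8, 96.3 and 90.9 FPKM and at 104, 101 and 96.8 FPKM, with the PRMT1 KD libraries above control (log2 fold change 0.11, adjusted p = 0.243).

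Of 5 receptor and B cell partner genes tested out of 18 listed, 0 were called by limma or voom and 1 had an unadjusted p under 0.05 (20%, against 19.5% of all genes). IGLL5, which contains the exons of IGLJ1 and IGLC1, stood at 36.5, 34.6 and 31.0 FPKM in control and 46.3, 41.1 and 33.4 FPKM in PRMT1 KD (adjusted p = 0.351). Of 12 recombination and switching genes tested out of 16, 0 were called by limma or voom and 1 had an unadjusted p under 0.05 (8.33%, against 19.5% of all genes).

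**Figure D5:**
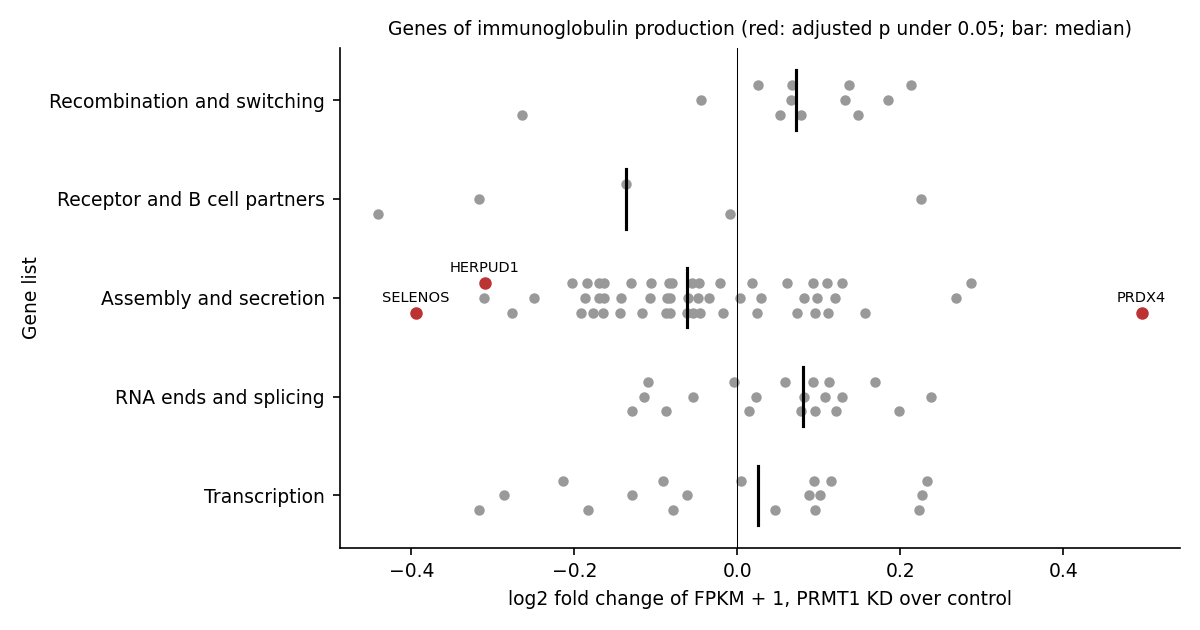
Log2 fold change (PRMT1 KD over control, on log2(FPKM + 1)) of each tested gene in the 5 lists, with called genes in red and the list median as a bar. PRDX4 (0.50), HERPUD1 (-0.31) and SELENOS (-0.39) are the called genes, all of the assembly and secretion list.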

How the data were processed

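RNA-seq was performed on 6 libraries of cells labelled MM.1S, 3 with si-NC and 3 with si-PRMT1. The authors deposited FPKM values for 58735 genes, with the gene lengths used. The submitters' processing notes name featureCounts 1.5.0-p3 and hg38. Settings for strand, overlapping genes and multi-mapping reads are not given in the sources used here. Multiplied by gene length, the FPKM values were whole multiples of 1 step in each library (100% within 0.001 of a whole read), which gave the reads per gene and library sizes of 14439217 to 16465026 reads. The sizes by which libraries had been divided equalled their median-of-ratios size factors, so a scaling between libraries is already included.

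The log2(FPKM + 1) values of all 13585 genes with a mean of at least 1 FPKM entered 1 linear model per gene (limma 3.58.1, R 4.3.3). Variances were moderated along their trend with expression level, tests were two-sided, and p-values were adjusted by the Benjamini-Hochberg method over all genes. Fold changes are on that scale, which understates changes of low genes. Ratios and shares were compared with an exact permutation test over libraries, which with 3 against 3 cannot go below a two-sided p of 0.1. The paper describes its experiments as having 3 dependent biological replicates. No source says that libraries came from separate cultures, so p-values cover the spread between these libraries only. Detection limits are 3 reads and cover counting error only.

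All 213 members matched GENCODE release 29 by identifier and coordinates. Sequences, identities and shared windows were read from its transcripts. Genes named were the members with a mean of at least 1 FPKM, the highest of each segment class, PRMT1, list genes past the threshold, JCHAIN, MZB1, IGLL5, POU2AF1, XBP1, IRF4, PRDM1 and ELL2, and pseudogenes with a mean of at least 1 FPKM. Marker genes, IGLC7, IGHV1-18 and IGHV3-35 were named after their values were seen, as were MAF, CCR1, CD44, ITGB7, CCND1 and CCND2. The members and lists were chosen with earlier results of these data known. The main fit was also run on simulated data with the same dispersion for every gene, and its outcome is not given here. Alternatives were a pseudocount of 0.1, no filter, a filter of 5 FPKM, median scaling, quantile normalization, TPM with and without immunoglobulin genes, no trend, voom, a replicate block and each library left out. The ratios of IGHA2 to IGHA1 and to IGHG2 and the share without IGHA2 were added after seeing the data.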

Additional observations from a re-analysis of the deposited data

How the results depend on the processing

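The count of immunoglobulin genes called, 2 as reported, was 1 with a filter of 5 FPKM, median scaling, a pseudocount of 0.1, quantile normalization, voom or the replicate block, and 0 without a filter or without the trend. It ranged from 0 to 1 when each library was left out, where fewer libraries were fitted. The count over the machinery lists, 3 as reported, was 8 with a filter of 5 FPKM, 11 by voom, 6 after rescaling to TPM and 5 after rescaling without immunoglobulin genes, 1 without a filter or without the trend, and 0 to 2 with a library left out. Over all genes, 279 of 13585 were called as reported, 473 of 7710 with a filter of 5 FPKM and 35 of 34078 without a filter. With 13585 genes tested, the calls were 43 without the trend, 235 with median scaling, 266 with a pseudocount of 0.1 and 325 with quantile normalization. They were 355 after rescaling to TPM, 356 after rescaling without immunoglobulin genes, 927 by voom and 13 to 94 with a library left out. The cause of the spread between settings was not tested. The difference in the immunoglobulin share of reads, 0.0320 percentage points, was 0.134 as a share of summed FPKM with IGHA2 included. As a share of reads without IGHA2 it was 0.00691, an alternative chosen after seeing the data. The ratios of light to heavy chain, of IGHA2 to IGHA1 and of IGHA2 to IGHG2 moved by less than the spread between libraries under their alternatives.

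The replicate numbers of the labels were used as a block. Same-numbered libraries deviated together by correlations of 0.02, 0.0631 and 0.101, and differently numbered libraries by -0.0751 to 0.0186. Each same-numbered pair was higher, but all these correlations were small and the labels state no pairing. The main model left the numbers out, and whether replicates were paired was not tested. With the replicate block, 204 genes were called, among them 1 immunoglobulin gene and 3 machinery genes, and the differences in share and ratios were the same with an exact sign-flip permutation p of 0.25, the smallest it allows.

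Small changes turned sign under some settings. With median scaling, IGLC3 was at -0.011, IGHD at -0.0077 and IRF4 at -0.013 on the log2 scale, and IGHG2 was at 0.0015 after rescaling to TPM and 0.0035 after rescaling without immunoglobulin genes. With a library left out, log2 fold changes ranged from -0.072 to 0.013 for IGHG2, -0.051 to 0.084 for IGLC3, -0.032 to 0.038 for IGHD, -0.21 to 0.015 for IGHG4, -0.032 to 0.18 for IGHG3 and -0.0039 to 0.014 for IRF4. The variable genes ranged from -0.19 to 0.23 for IGLV5-52, -0.39 to 0.29 for IGHV4-34, -0.18 to 0.29 for IGHV3-33, -0.11 to 0.20 for IGHV3-38, -0.33 to 0.16 for IGLV1-51, -0.24 to 0.036 for IGHV3-43 and -0.42 to 0.11 for IGHV3-30. None of these genes was called in any setting. Depth limits the variable and joining genes most, since 15 of 24 immunoglobulin genes averaged fewer than 100 reads a library.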
